A study of Mus musculus with 24 samples.

Results

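The receptors and ligands of the VEGF and angiopoietin families were measured as 10 of the 25361 genes in a table of TPM values. The members were chosen by gene symbol and all 10 were found. They are the VEGF receptor genes *Kdr*, *Flt1* and *Flt4*, the co-receptor genes *Nrp1* and *Nrp2*, the TIE receptor genes *Tek* and *Tie1*, and the ligand genes *Angpt1*, *Angpt2* and *Vegfc*. TPM divide the reads of a gene by its length and scale every library to a total of 1000000, so levels of different genes can be compared and the depth behind a value is unknown.

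VEGFs are secreted growth factors that bind receptor tyrosine kinases on endothelial cells and drive vessel growth, with neuropilins as co-receptors. Angiopoietins bind the receptor TIE2 and set how stable a vessel is, and TIE1 modulates TIE2. In the fetal liver, sinusoidal vessels grow among hepatoblasts, mesenchymal cells and blood-forming cells that can themselves release such ligands.

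RNA was sequenced from mouse livers at embryonic day 12.5 (E12.5), separately from the CD146+ cells, called liver sinusoidal endothelial cells (LSECs), and from the remaining non-EC cells. CD146, an adhesion molecule of endothelial cells, is the product of *Mcam*. The 24 libraries came from 4 genotypes, with 3 libraries for each genotype and fraction. The comparisons address which fraction the transcripts came from and whether endothelial loss of the chromatin remodelers CHD4 and BRG1 changed their levels.

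Controls were littermates without Cre. All mutants carried *VE-cadherin-Cre+*, and *Brg1/Chd4-ECdko* is also called the double mutant here. With it, *Chd4-ECko* embryos had the alleles *Chd4* fl/fl and *Brg1* fl/+, *Brg1-ECko* embryos had *Chd4* fl/+ and *Brg1* fl/fl, and *Brg1/Chd4-ECdko* embryos had fl/fl at both genes. *Brg1* is the name used here for *Smarca4*. Both single mutants thus also carried 1 floxed allele of the other gene, and all embryos had a mixed genetic background. VE-cadherin-Cre is active in endothelial cells and also in a share of blood cells. Transcripts without the floxed exons also count toward the TPM of *Chd4* and *Smarca4*. *Chd4* was listed at 168 to 351 TPM in LSEC and 328 to 406 TPM in non-EC libraries, and *Smarca4* at 99.9 to 161 and 161 to 189 TPM. In LSECs every mutant overlapped with control for both genes. In non-EC cells *Smarca4* was below the 183 to 189 TPM of the controls without overlap in *Chd4-ECko* (161 to 174 TPM) and the double mutant (162 to 169 TPM), but not in *Brg1-ECko* (165 to 189 TPM). Mitochondrial transcripts (13 genes) made up between 13.9 and 31.5% of each LSEC library and between 2.33 and 7.69% of each non-EC library.

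The fractions were checked against markers. *Mcam* had 34.8 to 64.8 TPM in the 12 LSEC libraries and 0.250 to 0.841 TPM in the 12 non-EC libraries. The summed TPM of 8 endothelial markers ran from 459 to 984 in LSECs and from 49.4 to 80.6 in non-EC cells, and those of 5 sinusoidal markers from 586 to 1336 and from 9.64 to 37.6. The LSEC fraction was not purely endothelial, since 8 mesenchymal markers summed to 890.0 to 1479 TPM there and to 53.5 to 183 TPM in non-EC cells. The 4 mesothelial markers summed to 40.7 to 89.4 and 0.812 to 3.28 TPM, and 8 myeloid markers to 536 to 1304 and 242 to 519 TPM. Higher in non-EC cells were 7 hepatoblast markers (16772 to 36321 TPM, against 3370 to 7769 in 11 LSEC libraries), 6 erythroid markers (1136 to 7029 against 189 to 1150 TPM) and 6 megakaryocyte markers (653 to 1691 against 154 to 531 TPM). The 5 blood progenitor markers overlapped, at 67.1 to 121 TPM in LSECs and 86.7 to 164 TPM in non-EC cells. LSEC replicate 1 of *Brg1-ECko* stood apart, with 27241 TPM of hepatoblast markers and the lowest endothelial sum, and the ranges and the named *Brg1-ECko* differences with an unadjusted p under 0.05 or no overlap are also given without it. In these bulk samples, fewer cells of a type and less RNA per cell cannot be told apart.

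Of the 10 members, 9 were higher in control LSECs than in control non-EC cells and 1, *Angpt1*, did not differ beyond the spread of its libraries. A gene was called when its log2 fold change exceeded 1 in size and its adjusted p was under 0.05, with limma on log2(TPM + 1) and Benjamini-Hochberg adjustment over all genes tested. Of the 13775 genes tested, 19.4% were called higher in LSECs. The median log2 fold change of the 10 members was 4.18, against -0.092 over all genes tested. In the same 9 members the lowest of the 12 LSEC libraries exceeded the highest of the 12 non-EC libraries. Between 3 and 3 control libraries, the groups did not overlap for these 9 either, as for 75.1% of all genes tested. Mesenchymal and mesothelial markers were also higher in the LSEC fraction, and their part in these differences was not tested.

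The VEGF receptors differed most between the fractions. *Kdr* (ENSMUSG00000062960), which encodes VEGFR2, the main signalling receptor for VEGFA, lies on the reverse strand of chromosome 5 of GRCm39 from 76093487 to 76139884. Its TPM in control replicates 1, 2 and 3 were 279, 264 and 216 in LSECs and 5.47, 3.11 and 4.90 in non-EC cells. Every LSEC library was far above every non-EC library, by a log2 fold change of 5.55 (standard error, SE, 0.29, adjusted p by limma = 8.78e-13). *Flt1* (ENSMUSG00000029648, reverse strand of chromosome 5 from 147498414 to 147662826) encodes VEGFR1, a high-affinity VEGF receptor that also has a soluble form. It had 65.4, 65.9 and 52.9 TPM in control LSECs and 0.563, 0.304 and 0.629 TPM in control non-EC cells. No non-EC library of any genotype reached 1 TPM, and the log2 fold change in controls was 5.38 (SE 0.17, adjusted p by limma = 8.13e-16). The soluble and the full-length transcripts are not separated in values per gene.

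*Flt4* (ENSMUSG00000020357) encodes VEGFR3, the receptor of VEGFC and VEGFD, and lies on the forward strand of chromosome 11 from 49500090 to 49543582. It had 82.1, 76.8 and 52.6 TPM in control LSECs and 0.356, 0.0853 and 0.0769 TPM in control non-EC cells. Its 12 non-EC libraries stayed between 0.0769 and 0.844 TPM, and its log2 fold change of 5.91 (SE 0.17, adjusted p by limma = 3.10e-16) was the largest of the 10. The ratio of the control means was 408 for *Flt4*, 123 for *Flt1* and 56.4 for *Kdr*. These ratios have no pseudocount, and those of *Flt4* and *Flt1* rest on non-EC values below 1 TPM.

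The neuropilins were enriched in LSECs to a lesser degree. *Nrp1* (ENSMUSG00000025810, forward strand of chromosome 8 from 129085085 to 129231082) encodes a co-receptor for VEGFA and class 3 semaphorins. It had 183, 194 and 146 TPM in control LSECs and 10.4, 5.12 and 10.1 TPM in control non-EC cells, with a log2 fold change of 4.24 (SE 0.29, adjusted p by limma = 5.78e-11). *Nrp2* (ENSMUSG00000025969, forward strand of chromosome 1 from 62742444 to 62857854), a co-receptor of VEGFR3 in lymphatic endothelium, had 44.2, 33.0 and 32.4 TPM in control LSECs. Its control non-EC libraries had 1.83, 0.643 and 1.11 TPM, and its log2 fold change was 4.12 (SE 0.21, adjusted p by limma = 1.00e-12). In both genes the fractions lay well apart, and *Nrp1* had 4.83 ± 0.919 times the TPM of *Nrp2* in control LSECs (SD, n = 3).

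Both TIE receptors were found at high levels in LSECs. *Tek* (ENSMUSG00000006386, forward strand of chromosome 4 from 94627291 to 94763224) encodes TIE2, the angiopoietin receptor. It had 149, 147 and 123 TPM in control LSECs and 4.45, 3.43 and 3.95 TPM in control non-EC cells, a log2 fold change of 4.83 (SE 0.23, adjusted p by limma = 2.03e-13). *Tie1* (ENSMUSG00000033191, reverse strand of chromosome 4 from 118328385 to 118347261) had 76.7, 85.5 and 67.6 TPM in control LSECs and 5.76, 4.13 and 6.83 TPM in control non-EC cells. Its log2 fold change of 3.58 (SE 0.26, adjusted p by limma = 1.51e-10) was the smallest among the 7 receptors and co-receptors. The order of both genes was reversed between the fractions. *Tie1* had 0.548 ± 0.0328 times the TPM of *Tek* in control LSECs and 1.41 ± 0.280 times in control non-EC cells (SD, n = 3), and no LSEC library (0.515 to 0.610) overlapped a non-EC library (1.20 to 5.36). Both *Tie1* and *Tek* are also known from megakaryocytes or blood stem cells, whose markers were present in the non-EC fraction, and their part in this ratio was not tested.

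The ligands fell into different patterns. *Angpt2* (ENSMUSG00000031465, reverse strand of chromosome 8 from 18739202 to 18791603) encodes the context-dependent antagonist of TIE2 that endothelial cells store and release. It had 7.08, 7.97 and 8.07 TPM in control LSECs and 0.193, 0.225 and 0.225 TPM in control non-EC cells, a log2 fold change of 2.84 (SE 0.31, adjusted p by limma = 6.48e-08). The gene overlaps *Mcph1* on the opposite strand, and whether strand was used in counting is not given in the sources used here. *Mcph1* had 5.22 to 9.96 TPM in LSECs and 11.3 to 15.5 TPM in non-EC cells, and its part in the *Angpt2* values was not tested. *Vegfc* (ENSMUSG00000031520, forward strand of chromosome 8 from 54530257 to 54640131), the main ligand of VEGFR3, had 12.2, 15.4 and 12.0 TPM in control LSECs. Its control non-EC libraries had 2.17, 0.872 and 0.982 TPM, a log2 fold change of 2.63 (SE 0.22, adjusted p by limma = 1.08e-09).

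*Angpt1* (ENSMUSG00000022309, reverse strand of chromosome 15 from 42288058 to 42540417) encodes the main agonist of TIE2, which in many organs comes from cells around the vessel. It had 28.3, 15.7 and 26.8 TPM in control LSECs and 23.7, 13.0 and 28.7 TPM in control non-EC cells. The 2 groups overlapped, and in each fraction replicate 2 was the lowest. The log2 fold change was 0.14 (SE 0.39, 95% interval -0.68 to 0.95, adjusted p by limma = 0.773), and its sign turned when LSEC replicate 1 (-0.012) or non-EC replicate 2 (-0.18) of the controls was left out. The interval stayed below the calling threshold of 1. *Angpt1* was the most abundant member in control non-EC cells, at 21.8 ± 8.02 TPM (SD, n = 3), and the third lowest in control LSECs, at 23.6 ± 6.86 TPM. Mesenchymal markers were higher in the LSEC fraction and megakaryocyte markers in the non-EC fraction, as given above, and their part in the *Angpt1* levels was not tested.

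**Figure D1:**
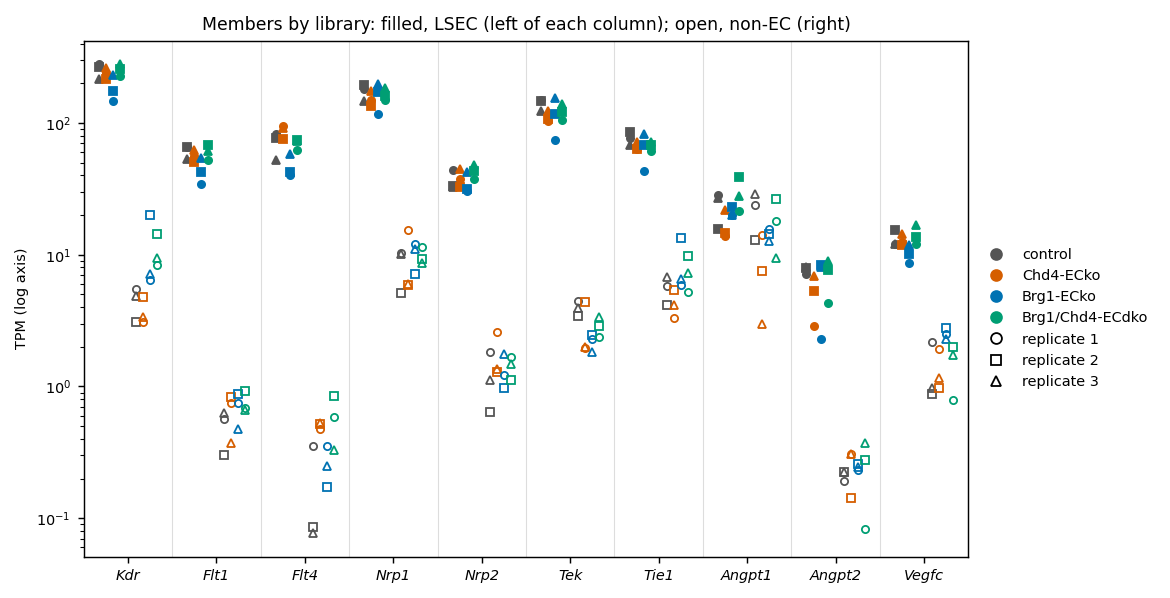
TPM of the 10 members in each of the 24 libraries on a log axis, with LSECs as filled and non-EC cells as open symbols, colours for genotypes and shapes for replicate numbers. In 9 members the LSEC libraries lie above the non-EC libraries, and in *Angpt1* the fractions overlap.

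**Figure D2:**
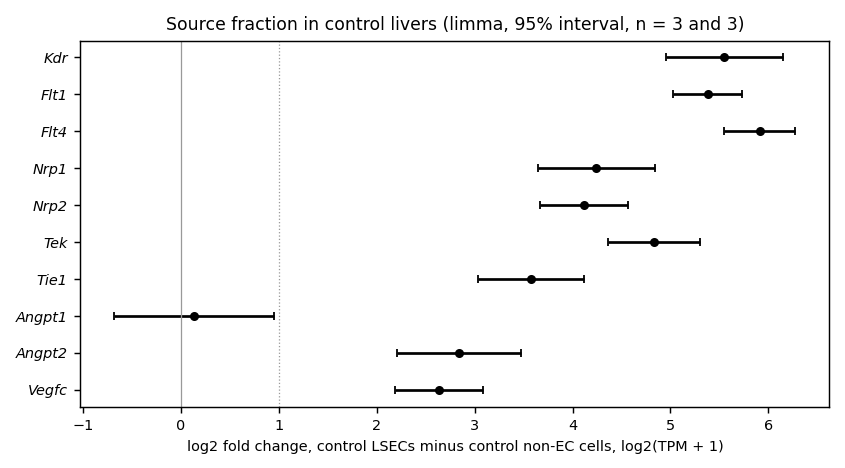
Log2 fold change of each member between control LSECs and control non-EC cells on the log2(TPM + 1) scale, with 95% intervals from limma (n = 3 and 3), a solid line at 0 and a dotted line at the threshold of 1. *Flt4* lies highest at 5.91, and the interval of *Angpt1* spans 0.

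The mean levels in control LSECs placed *Kdr* first at 253 ± 32.7 TPM, followed by *Nrp1* at 174 ± 25.2, *Tek* at 139.7 ± 14.3, *Tie1* at 76.6 ± 8.99, *Flt4* at 70.5 ± 15.7 and *Flt1* at 61.4 ± 7.38 TPM (SD, n = 3). *Nrp2* followed at 36.5 ± 6.66, *Angpt1* at 23.6 ± 6.86, *Vegfc* at 13.2 ± 1.93 and *Angpt2* at 7.71 ± 0.547 TPM. Libraries of neighbours in this order overlapped between *Nrp1* and *Tek*, between *Tie1* and *Flt4*, and between *Flt4* and *Flt1*. Those of the other neighbours did not, although the lowest *Angpt1* library (15.7 TPM) and the highest *Vegfc* library (15.4 TPM) nearly met. In control non-EC cells, *Angpt1* was followed by *Nrp1* at 8.54 ± 2.97, *Tie1* at 5.58 ± 1.36, *Kdr* at 4.49 ± 1.23 and *Tek* at 3.95 ± 0.508 TPM, and all these receptors overlapped with their neighbours. *Angpt1* and *Nrp1* did not overlap (13.0 and 10.4 TPM at the nearest). The other 5 were at or below 1.34 TPM on average.

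The upstream sequences of 2 members are shown, because they are the receptor that differed most between the fractions and the most abundant receptor. Each is the 250 bases before the start of the canonical transcript in GENCODE's annotation of GRCm39, 5′ to 3′ on the strand of the gene, namely chr11:49499840-49500089 (forward) for *Flt4* and chr5:76139119-76139368 (reverse) for *Kdr*. No other annotated start and no annotated exon lies in them, although the window of *Kdr* is within the extent of a longer annotated transcript. Capitals mark AGGAAG or its reverse complement CTTCCT, which is the GGAA core bound by ETS factors with fixed flanking bases. ETS factors are transcription factors common in endothelial cells.
Flt4: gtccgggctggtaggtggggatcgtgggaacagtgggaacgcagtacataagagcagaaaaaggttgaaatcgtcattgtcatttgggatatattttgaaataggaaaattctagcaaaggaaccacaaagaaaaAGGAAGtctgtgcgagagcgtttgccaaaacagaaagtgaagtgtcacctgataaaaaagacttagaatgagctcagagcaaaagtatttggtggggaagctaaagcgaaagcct
Kdr: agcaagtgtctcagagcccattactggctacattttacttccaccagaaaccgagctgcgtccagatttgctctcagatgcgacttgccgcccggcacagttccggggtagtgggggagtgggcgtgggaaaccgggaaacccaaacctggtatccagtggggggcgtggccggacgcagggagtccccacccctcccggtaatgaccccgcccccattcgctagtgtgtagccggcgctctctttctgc
*Flt4* holds this marked motif once, with its first base 115 bases before the start, and *Kdr* does not hold it. The shorter core GGAA was not marked or counted, and it occurs in both windows. The marked motif was found in 28.9% of the 21770 windows of the same length. A single form of the GATA motif, AGATAA or TTATCT, was found in 0 of these 2 and in 9.6% of all windows. Other forms were not searched, and the *Flt4* window holds the form TGATAA. Both strands were searched, and no hits of the motifs overlapped in the sequences shown. A match describes the sequence, and binding was not measured here.

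In LSECs, 0 of the 10 members were called in any mutant. Over all 12 LSEC libraries, the highest value was 1.56 times the lowest for *Nrp2*, 1.67 times for *Nrp1*, 1.89 to 2.33 times for the other 5 receptors and 1.96 times for *Vegfc*. It was 2.84 times for *Angpt1* and 3.93 times for *Angpt2*. In every member but *Angpt1* the lowest value was that of *Brg1-ECko* replicate 1. Without this library the highest value was 1.40 times the lowest for *Tie1*, 1.46 times for *Nrp1*, 1.50 times for *Nrp2* and *Tek*, 1.58 times for *Flt1* and *Kdr*, 1.67 times for *Vegfc*, 2.22 times for *Flt4* and 3.16 times for *Angpt2*. Limma called 0.521% of the 13444 genes tested for *Chd4-ECko*, 0.0149% for *Brg1-ECko* and 0.565% for the double mutant against control, and 0.0372% between *Brg1/Chd4-ECdko* and *Chd4-ECko*. Unadjusted p-values under 0.05 were found for 0 members in *Chd4-ECko* (6.49% of all genes), 3 in *Brg1-ECko* (9.68%), 0 in the double mutant (12.1%) and 1 between these mutants (10.4%). The 3 mutants were compared with the same 3 controls.

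In *Chd4-ECko* LSECs the receptors lay close to control. *Kdr* had 239.8, 214 and 259 TPM, and its log2 fold change of -0.086 had a 95% interval of -0.44 to 0.27. *Tek* had 103, 107 and 124 TPM, against 123 to 149 TPM in control, a log2 fold change of -0.32 (adjusted p by limma = 1.00). The intervals of the 7 receptors and co-receptors lay between -0.77 and 0.71. The libraries of 1 member did not overlap with control, as for 12.3% of all genes. This was *Angpt2*, with 2.86, 5.28 and 6.89 TPM against 7.08 to 8.07 TPM in control. All 3 *Chd4-ECko* libraries were below all 3 controls, but the log2 fold change of -0.59 (SE 0.37) had an adjusted p by limma of 1.00, and it was -0.30 without *Chd4-ECko* replicate 1. The median log2 fold change of the members was -0.15, against 0.0073 over all genes.

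*Flt4* was the only member with a higher mean in *Chd4-ECko* than in control by more than 10 TPM, with 94.3, 75.9 and 91.9 TPM against 82.1, 76.8 and 52.6 TPM. The groups overlapped, and the log2 fold change was 0.32 (SE 0.18, adjusted p by limma = 0.950). Against *Chd4-ECko*, *Brg1/Chd4-ECdko* LSECs had lower *Flt4*, at 62.0, 73.9 and 72.8 TPM. These 2 groups did not overlap, which held for 1 member and 15.9% of all genes, with a log2 fold change of -0.32 (SE 0.18, adjusted p by limma = 0.526). The ratio of *Kdr* to *Flt4* was 2.54 to 2.82 in the 3 *Chd4-ECko* libraries and 3.40 to 4.16 in the other 9 LSEC libraries. This ratio was singled out after its values were seen and has no test.

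In *Brg1-ECko* LSECs the 3 VEGF receptors had the lowest means of the 4 genotypes. *Kdr* had 148, 176 and 231 TPM, against 216 to 279 TPM in control. *Flt1* had 34.4, 42.8 and 54.3 TPM, against 52.9 to 65.9 TPM, and *Flt4* had 40.4, 42.4 and 57.7 TPM, against 52.6 to 82.1 TPM. In each gene 2 of the 3 mutant libraries lay below all controls, and replicate 3 lay within the range of the controls. The log2 fold changes were -0.57 for *Flt4* (SE 0.18, adjusted p by limma = 0.365), -0.49 for *Flt1* (0.17, adjusted p = 0.409) and -0.47 for *Kdr* (0.16, adjusted p = 0.426). These were the 3 members with an unadjusted p under 0.05.

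Marker RNA was measured beside the receptors in these libraries. The 8 endothelial markers summed to 459, 626 and 739 TPM in *Brg1-ECko* replicates 1, 2 and 3 and to 887, 984 and 749.9 TPM in control, and the 5 sinusoidal markers to 586 to 860 TPM against 1008 to 1324 TPM. None of these markers was at 0. *Mcam*, the gene of the selection marker, overlapped with control (34.8 to 64.8 against 49.4 to 61.5 TPM), as did the 8 mesenchymal markers (1177 to 1423 against 1052 to 1437 TPM). The part of these cell types in the receptor values was not tested. With the mean of the endothelial markers as a covariate, the log2 fold changes of *Flt4*, *Flt1* and *Kdr* were -0.11, 0.0065 and 0.029 (adjusted p by limma = 1.00 for each). Without *Brg1-ECko* replicate 1, the library rich in hepatoblast markers, they were -0.48 (adjusted p = 0.893), -0.34 (1.00) and -0.32 (1.00). *Nrp1*, *Nrp2*, *Tek* and *Tie1* had log2 fold changes of -0.34 to -0.06 in the same comparison, with groups that overlapped.

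*Vegfc* was the only member whose *Brg1-ECko* and control LSEC libraries did not overlap, as for 14.6% of all genes. It had 8.63, 10.1 and 11.8 TPM in *Brg1-ECko* and 12.0 to 15.4 TPM in control. The log2 fold change was -0.35 (SE 0.17, adjusted p by limma = 0.534), and it was 0.066 with the endothelial covariate and -0.25 without *Brg1-ECko* replicate 1. *Angpt2* in that replicate was 2.29 TPM, while the other 2 *Brg1-ECko* libraries, at 8.37 and 8.14 TPM, lay above all controls. The median of the members in *Brg1-ECko* was -0.34, against 0.081 over all genes.

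In *Brg1/Chd4-ECdko* LSECs no member separated from control, while 23.1% of all genes did. *Kdr* had 227, 255 and 279 TPM, *Flt1* 52.5, 67.5 and 61.7 TPM and *Flt4* 62.0, 73.9 and 72.8 TPM. Their log2 fold changes were 0.0063, -0.019 and 0.0020, with 95% intervals between -0.38 and 0.39, so that a change by the calling threshold lay outside them. *Angpt1* had the highest mean of the 4 genotypes, with 21.3, 39.1 and 27.8 TPM, against 13.8, 14.5 and 21.8 TPM in *Chd4-ECko*. These 2 groups overlapped by replicate 1 of one and replicate 3 of the other, and the log2 fold change between them was 0.77 (SE 0.25, adjusted p by limma = 0.448, unadjusted p = 0.00775). The median over all genes was itself 0.16 for the double mutant relative to control and 0.13 relative to *Chd4-ECko*, while that of the members was -0.0086 and 0.12.

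**Figure D3:**
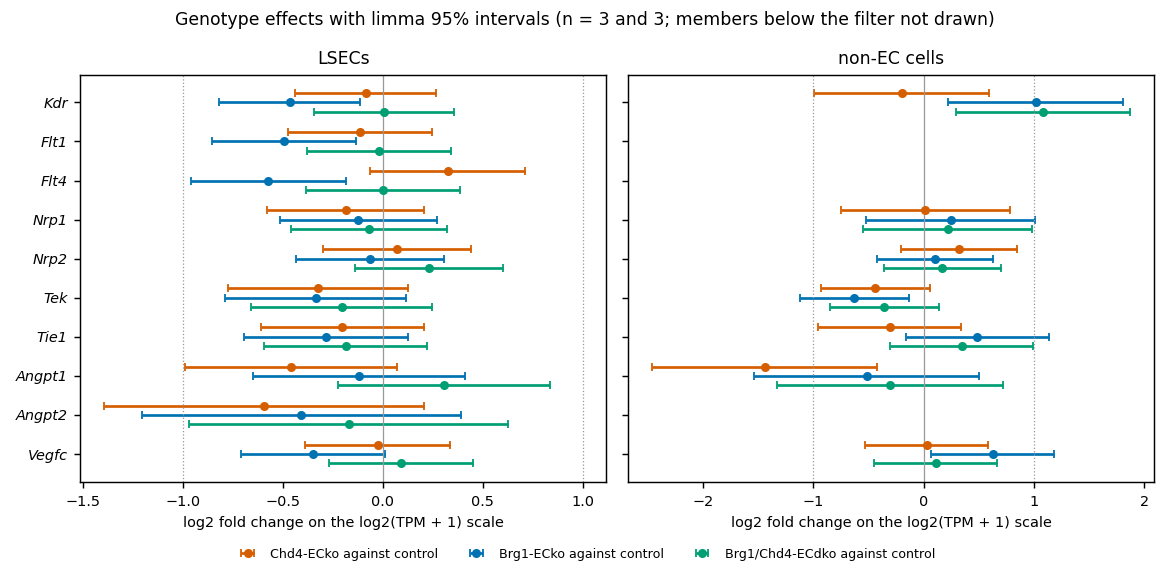
Log2 fold change of each mutant against control in LSECs (left) and non-EC cells (right) on the log2(TPM + 1) scale, with 95% intervals from limma (n = 3 and 3) and dotted lines at 1 and -1, where *Flt1*, *Flt4* and *Angpt2* were below the filter in non-EC cells. In LSECs the *Brg1-ECko* intervals of *Kdr*, *Flt1* and *Flt4* lie below 0, and in non-EC cells the *Kdr* intervals of *Brg1-ECko* and *Brg1/Chd4-ECdko* lie above 0, none of them called.

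In non-EC cells 7 of the 10 members passed the filter of 1 TPM in at least 3 libraries, and 0 of these were called in any mutant. Limma called 0.884% of the 12223 genes tested for *Chd4-ECko*, 1.37% for *Brg1-ECko* and 0.115% for the double mutant. An unadjusted p under 0.05 was found for 1 member in *Chd4-ECko* (33.9% of all genes), 3 in *Brg1-ECko* (28% of all genes) and 1 in the double mutant (11.7% of all genes). The median log2 fold changes of the 7 members were -0.20, 0.25 and 0.17, against 0.0054, 0.020 and 0.014 over all genes. The groups of 3 did not overlap for 0 of the 7 tested members in *Chd4-ECko* (27.4% of all genes), for 3 in *Brg1-ECko* (39.9% of all genes) and for 2 in the double mutant (24% of all genes). The summed hepatoblast markers of the same mutants lay above control without overlap, at 25437 to 34465 TPM in *Chd4-ECko*, 25092 to 36321 in *Brg1-ECko* and 21604 to 28657 in the double mutant, against 16772 to 18810 TPM in control, and their part in the members' values was not tested. In the double mutant the 8 mesenchymal markers were also above control without overlap (103 to 132 against 53.5 to 98.7 TPM). Their part was not tested either.

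*Angpt1* had its lowest values in *Chd4-ECko* non-EC cells. They were 14.0, 7.56 and 2.99 TPM in replicates 1, 2 and 3, against 23.7, 13.0 and 28.7 TPM in control. Replicates 2 and 3 were below all controls, and replicate 1 was above the control with 13.0 TPM. The log2 fold change was -1.44 (SE 0.47, adjusted p by limma = 0.0665). Without *Chd4-ECko* replicate 1 it was -1.89 (adjusted p = 0.00702), and without replicate 3 it was -0.94 (adjusted p = 0.223), so that the call depended on single libraries. It also depended on the processing, with adjusted p by limma = 0.0462 after quantile normalization and 0.0469 with the endothelial covariate. Mitochondrial transcripts made up 7.37, 3.43 and 2.33% of *Chd4-ECko* replicates 1, 2 and 3, and the part of this share was not tested. *Angpt1* had 12.7 to 15.6 TPM in *Brg1-ECko* and, in the double mutant, 9.42 to 26.6 TPM, both overlapping the range of the controls. Megakaryocyte markers summed to 653, 1283 and 756 TPM in the 3 *Chd4-ECko* libraries and to 1219, 785 and 1202 TPM in control, groups that overlapped. Erythroid markers summed to 1914.5, 2747 and 7029 TPM in *Chd4-ECko* replicates 1, 2 and 3, the last being the highest of all 24 libraries, and to 3656, 6524 and 1517 TPM in control. The *Brg1-ECko* libraries had erythroid sums of 1136 to 2347 TPM. For the double mutant these were 1675, 2367 and 2055 TPM, and its *Angpt1* values were 17.9, 26.6 and 9.42 TPM in the same order. The library with the highest erythroid sum had the lowest *Angpt1* in control and both single mutants but the highest in the double mutant, and the part of these cells in the *Angpt1* values was not tested. In *Chd4-ECko* LSECs *Angpt1* had a log2 fold change of -0.46, and the difference between the fractions was 0.98 (SE 0.55, adjusted p by limma = 0.335).

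*Kdr* had its highest non-EC values in the genotypes with fl/fl at *Brg1*. Its TPM were 6.47, 20.0 and 7.19 in *Brg1-ECko*, and those of the double mutant were 8.37, 14.3 and 9.41, against 5.47, 3.11 and 4.90 TPM in control and 3.08, 4.80 and 3.37 TPM in *Chd4-ECko*. All 6 libraries of these genotypes lay above all 3 controls, and *Brg1-ECko* replicate 2 stood above the rest. The log2 fold changes were 1.01 (SE 0.36, adjusted p by limma = 0.0928) in *Brg1-ECko* and 1.08 (0.36, adjusted p = 0.211) in the double mutant, so neither was called. In *Brg1-ECko* the value was 0.54 without replicate 2, which also had the highest sums of megakaryocyte (1691 TPM), endothelial (80.6 TPM) and blood progenitor markers (164 TPM) among the non-EC libraries. With the endothelial covariate the values were 0.56 and 0.86. Mitochondrial transcripts made up 5.24, 3.04 and 5.51% of *Brg1-ECko* replicates 1, 2 and 3, below the 6.17 to 7.69% of control. Their share was 6.43 to 6.65% in the double mutant. Without mitochondrial genes the log2 fold changes of *Kdr* were 0.99 and 1.08, and the part of this share was not tested.

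Among the 7 tested members, *Tek* and *Vegfc* were the others whose groups did not overlap. *Tek* had 2.30, 2.48 and 1.82 TPM in *Brg1-ECko* and, in the double mutant, 2.35, 2.87 and 3.39 TPM, all below the 3.43 to 4.45 TPM of the controls. Its log2 fold changes were -0.63 (SE 0.22, adjusted p by limma = 0.0938) and -0.36 (0.22, adjusted p = 0.646). *Vegfc* had 2.49, 2.76 and 2.28 TPM in *Brg1-ECko*, above the 0.872 to 2.17 TPM of the controls, with a log2 fold change of 0.62 (SE 0.25, adjusted p by limma = 0.134). It was at 1.51 ± 0.640 TPM in *Brg1/Chd4-ECdko* and 1.35 ± 0.496 TPM in *Chd4-ECko* (SD, n = 3). *Tie1*, *Nrp1* and *Nrp2* overlapped with control in every mutant, with log2 fold changes of -0.31 to 0.49.

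The 3 members below the filter stayed under 1 TPM in every non-EC library, and were not tested there. In 3 of these 9 comparisons the groups did not overlap, beside 27.4%, 39.9% and 24% of all tested genes in the 3 mutants, namely for *Flt4* in *Chd4-ECko* (0.474 to 0.528 against 0.0769 to 0.356 TPM), *Angpt2* in *Brg1-ECko* (0.233 to 0.259 against 0.193 to 0.225 TPM) and *Flt1* in *Brg1/Chd4-ECdko* (0.659 to 0.928 against 0.304 to 0.629 TPM).

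**Figure D4:**
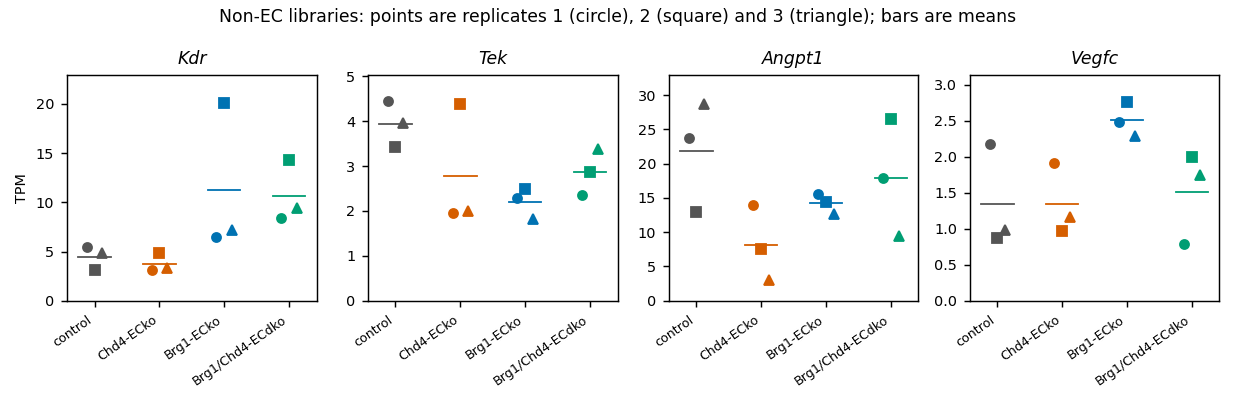
TPM of *Kdr*, *Tek*, *Angpt1* and *Vegfc* in the 12 non-EC libraries by genotype, with points for replicates 1 (circle), 2 (square) and 3 (triangle) and bars for means (n = 3). *Kdr* in *Brg1-ECko* replicate 2 lies highest, and the lowest *Angpt1* value is 2.99 TPM in *Chd4-ECko*.

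Whether an effect differed between LSECs and non-EC cells was tested as an interaction over all 24 libraries. The replicate number was not in this fit, and *Kdr* in *Brg1-ECko* had an adjusted p by limma of 0.0840 with it as a block. None of the 10 members was called by limma, against 0.69% of the 13775 genes for *Chd4-ECko*, 0.639% for *Brg1-ECko* and 0.0581% for the double mutant. An unadjusted p under 0.05 was found for 0 members in *Chd4-ECko* (19.1% of all genes), 5 in *Brg1-ECko* (17.9% of all genes) and 1 in the double mutant (7.57% of all genes). The 5 were *Kdr* (-1.48, SE 0.41, adjusted p by limma = 0.0755), *Vegfc* (-0.97, 0.31, adjusted p = 0.116), *Flt1* (-0.68, 0.24, adjusted p = 0.158), *Flt4* (-0.68, 0.25, adjusted p = 0.167) and *Tie1* (-0.77, 0.36, adjusted p = 0.276). All 5 were negative. *Flt1* and *Flt4* stayed under 1 TPM in every non-EC library and passed the filter only through LSECs, where their differences were -0.49 and -0.57. For *Kdr*, *Vegfc* and *Tie1* the estimated *Brg1-ECko* effect was lower in LSECs than in non-EC cells. Without LSEC *Brg1-ECko* replicate 3, *Kdr* was past the threshold (-1.65, adjusted p by limma = 0.0459). Without LSEC *Brg1-ECko* replicate 1 it was -1.33 (adjusted p by limma = 0.159) and *Tie1* was -0.51 (adjusted p = 0.516), while *Vegfc*, *Flt1* and *Flt4* were -0.87, -0.52 and -0.59 (adjusted p = 0.225, 0.325 and 0.310). Without non-EC *Brg1-ECko* replicate 2, the library with the highest *Kdr* in that group, they were -1.0 (adjusted p by limma = 0.127) and -0.44 (adjusted p = 0.553). With the endothelial markers as a covariate the 5 values were -0.43, -0.29, -0.018, -0.16 and 0.30. For *Brg1/Chd4-ECdko* the 1 member was *Kdr*, at -1.08 (SE 0.41, adjusted p by limma = 0.498).

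The ratios of *Kdr* to *Flt1* and of *Tie1* to *Tek* stayed in narrow ranges in LSECs. The ratio of *Kdr* to *Flt1* was 4.19 ± 0.184 over the 12 LSEC libraries (SD), with a range of 3.78 to 4.52, while *Kdr* ran from 148 to 279 TPM. It was 11.2 ± 5.06 over the 12 non-EC libraries. The ratio of *Tie1* to *Tek* was 0.567 ± 0.0313 in LSECs and 2.38 ± 1.22 in non-EC cells, where it ran from 2.58 to 5.36 in *Brg1-ECko*, from 2.15 to 3.38 in the double mutant, from 1.24 to 2.08 in *Chd4-ECko* and from 1.20 to 1.73 in control. The ratio of *Nrp1* to *Nrp2* was 4.33 ± 0.674 in LSECs and 6.85 ± 1.71 in non-EC cells. The ratio of *Angpt2* to *Angpt1* was 0.296 ± 0.108 in LSECs, so that the agonist exceeded the antagonist in every LSEC library (highest ratio 0.507). These ratios are descriptions, and 12 libraries of 4 genotypes are not replicates of 1 group.

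The other genes of these pathways were taken as 47 genes in 6 lists, of which 45 passed the filter in control LSECs against control non-EC cells. Of these, 28 were called higher and 1 lower in LSECs by limma, against 19.4% and 13.3% of all genes. The LSEC fraction also held more mesenchymal and mesothelial marker RNA, and the part of those cells in these calls was not tested. Among the 4 other VEGF ligands, 2 were called, *Pgf* (9.75 ± 1.17 against 0.175 ± 0.0522 TPM, SD, n = 3) and *Vegfd* (6.36 ± 2.05 against 0.273 ± 0.112 TPM). *Vegfa*, the main ligand of VEGFR2, was at 58.1 ± 8.51 TPM in control LSECs and 40.4 ± 2.73 TPM in control non-EC cells, a log2 fold change of 0.50 (adjusted p by limma = 0.00898) below the threshold of 1. *Vegfb*, a ligand of VEGFR1, was at 40.4 ± 6.37 and 40.7 ± 4.25 TPM. *Vegfa* and *Vegfb* thus had higher TPM than *Vegfc*, *Vegfd* and *Pgf* in every control library of both fractions.

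Among 5 genes of VEGFC maturation, 2 were called higher in LSECs, *Ccbe1*, an extracellular cofactor (7.17 ± 1.03 against 0.315 ± 0.221 TPM), and *Pcsk5*, a proprotein convertase (6.80 ± 1.70 against 0.478 ± 0.0560 TPM). *Adamts3*, the protease that cleaves VEGFC, was at 2.07 ± 0.347 TPM in LSECs and 4.87 ± 1.02 TPM in non-EC cells, a log2 fold change of -0.93 (adjusted p by limma = 3.47e-04) below the threshold in size. Of 3 tested genes of the TIE list, 2 were called higher, *Ptprb*, which encodes the phosphatase VE-PTP that acts on TIE2 (20.0 ± 2.57 against 0.147 ± 0.0484 TPM), and *Svep1*, an extracellular ligand of TIE1 (4.24 ± 1.17 against 0.0951 ± 0.0454 TPM). The 1 gene called lower was *Dok2*, an adaptor also common in blood cells (12.0 ± 3.98 against 28.3 ± 7.61 TPM).

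Of 12 semaphorins and plexins, the ligands and partners of neuropilins, 8 were called higher, including *Plxnd1* (log2 fold change 4.46), *Sema3f* (3.77) and *Sema3a* (4.73). Of 12 genes of VEGF signalling and its partners, 6 were called higher, including *Mmrn2* (6.38) and *Clec14a* (6.22), a matrix glycoprotein of endothelium and its surface receptor. Of 9 tested target genes 8 were called higher, including *Nos3* (5.15), *Aplnr* (4.95) and *Dll4* (4.64). The median log2 fold changes of the 6 lists were 1.50 for other VEGF ligands, 0.58 for VEGFC maturation, 2.24 for TIE, 1.96 for semaphorins and plexins, 1.30 for VEGF signalling and 2.28 for targets, against -0.092 over all genes. The 8 called genes with the smallest p were *Mmrn2*, *Nos3*, *Dll4*, *Clec14a*, *Plxnd1*, *Ptprb*, *Sema3f* and *Aplnr*, and the others named here were chosen after their values were seen.

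**Figure D5:**
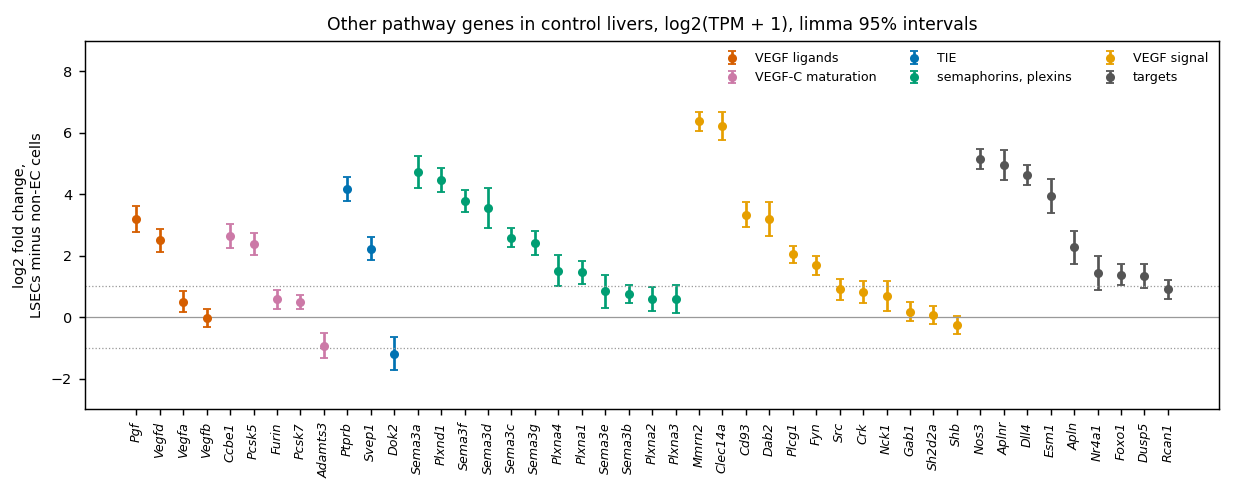
Log2 fold change between control LSECs and control non-EC cells of the 45 other pathway genes tested, by list, on the log2(TPM + 1) scale, with 95% intervals from limma (n = 3 and 3) and dotted lines at 1 and -1. *Mmrn2* and *Clec14a* lie highest, and *Dok2* is the 1 gene called lower.

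Between genotypes, 1 of the 45 genes tested in LSECs was called in *Chd4-ECko* (0.521% of all genes), 1 in *Brg1-ECko* (0.0149%) and 0 in the double mutant (0.565%). *Sh2d2a*, which encodes an adaptor bound by VEGFR2 and known from T cells, rose. It passed the filter of 1 TPM in at least 3 LSEC libraries through *Chd4-ECko*, the group where it was high. It had 0.187 ± 0.125 TPM in control and 2.31 ± 0.419 TPM in *Chd4-ECko* (SD, n = 3), a log2 fold change of 1.48 (SE 0.19, adjusted p by limma = 0.00258). The double mutant had 0.994 ± 0.326 TPM and *Brg1-ECko* had 0.218 ± 0.0443 TPM. The 8 myeloid markers were also higher in *Chd4-ECko* LSECs, at 722 to 1304 TPM against 559 to 716 TPM in control, and their part in the *Sh2d2a* difference was not tested. *Mmrn2* fell from 89.8 ± 14.8 TPM in control to 41.8 ± 8.50 TPM in *Brg1-ECko* LSECs, with a log2 fold change of -1.09 (SE 0.16, adjusted p by limma = 0.0472) that was -0.63 (adjusted p = 1.00) with the endothelial covariate and -0.99 (adjusted p = 0.0726) without *Brg1-ECko* replicate 1. With each library left out in turn its adjusted p was above 0.05 in 5 of 6 cases.

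*Vegfa* was higher in *Brg1/Chd4-ECdko* LSECs, at 104 ± 21.0 TPM against 58.1 ± 8.51 TPM in control, with libraries that did not overlap (86.5 to 127 against 48.5 to 64.8 TPM), as for 23.1% of all genes. Its log2 fold change of 0.82 (SE 0.17, adjusted p by limma = 0.0402) was below the calling threshold, and 0.87% of all genes had an adjusted p under 0.05. With each library left out in turn its adjusted p by limma was above 0.05 in 5 of 6 cases (0.0881 to 0.205) and 0.0420 without replicate 1 of the double mutant. The summed sinusoidal markers of these libraries were 827 to 1001 TPM against 1008 to 1324 TPM in control, and their part in the *Vegfa* difference was not tested. In non-EC cells 25 of the 47 genes were tested and 0 were called by limma, and 5 differences had an adjusted p under 0.05. These were *Furin* (0.65 and 0.75 in *Chd4-ECko* and *Brg1-ECko*), *Shb* (0.43 and 0.53 in the same order) and *Vegfb* (0.41 in *Chd4-ECko*). They make 3 of 25 genes in *Chd4-ECko*, against 9.48% of all genes, and 2 of 25 in *Brg1-ECko*, against 11.7%. The 3 in *Chd4-ECko* had adjusted p by limma = 0.0976 (*Furin*), 0.172 (*Shb*) and 0.174 (*Vegfb*) when only the compared groups were fitted.

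For each member, the tested genes with the most similar pattern over the 24 libraries were those with the smallest root mean square difference of log2(TPM + 1) after centring each gene. For *Kdr* these were *Bmp2* (0.25), *Ets1* (0.28) and *Myzap* (0.37), for *Flt1* *Prrg3* (0.20), *Ldb2* (0.21) and *Arhgef15* (0.21), and for *Flt4* *Adgrf5* (0.25), *Mmrn2* (0.28) and *Rasip1* (0.28). For *Nrp1* they were *Asb4*, *Nr2f2* and *Nrp2* (0.23 to 0.24), and for *Nrp2* *Nr2f2*, *Arhgap31* and *Eml1* (0.18 to 0.19). For *Tek* they were *She*, *Cd36* and *Ednrb* (0.26 to 0.29), and for *Tie1* *Esam*, *Tamalin* and *Cmtm3* (0.20 to 0.25). Those of the ligands were *Grk5*, *Pabpc4l* and *Ust* for *Angpt2* (0.22 to 0.25), *Marcksl1*, *Eva1b* and *Stard8* for *Vegfc* (0.22), and *Zfp932*, *Gm3604* and *Ppig* for *Angpt1* (0.28). The libraries share 2 fractions that differ widely, so a small difference mainly describes a similar contrast between them. *Nr2f2* was on the list of both neuropilins, and *Nrp2* was among the 3 genes nearest to *Nrp1*.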

How the data were processed

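RNA of 24 libraries was measured by sequencing after selection of poly-A RNA (12 LSEC and 12 non-EC libraries, 3 for each of 4 genotypes). The values are TPM per gene as deposited. The authors aligned the reads to the mouse genome GRCm39 and computed TPM in CLC Genomics Workbench, whose version and strand setting are not given in the sources used here. The 8 columns of group means by the authors were not used. TPM keep no depth, so no counting interval is given. Each library stands for 1 embryo according to the methods of the study.

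Genes that reached 1 TPM in 3 or more libraries of a fit were tested on log2(TPM + 1) with limma 3.58.1 (trend) in R 4.3.3, with 1 mean per group and Benjamini-Hochberg adjustment over all genes tested (13444 in LSECs, 12223 in non-EC cells, 13775 over both). A fold change on this scale understates the change of low genes. A gene was called at an adjusted p under 0.05 and a log2 fold change above 1 in size. The fit was tested on simulated data. With 3 libraries a group, an exact permutation test cannot go below p = 0.1, the value of the 9 members whose control fractions did not overlap.

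Members were given with all TPM, and with genotype effects where an adjusted p was under 0.05 or the groups did not overlap. Those with an unadjusted p under 0.05, and the *Vegfa* and *Flt4* results given beside them, were added after their values were seen. Other pathway genes were named when called, at most 8 per comparison. The members, the lists and the markers were chosen with earlier results of these data known. LSEC and non-EC libraries of the same genotype and number deviated together (12 of 12 pairs over 0.1, mean r 0.27, range 0.124 to 0.411). Deviations from a group mean cancel within the group, so the mean of -0.134 for other pairs follows from this and adds no evidence. The labels do not say whether equal numbers share an embryo. The main fits treated all libraries as independent, and a replicate block was run as an alternative. Upstream sequences were read from GRCm39 with python 3.11.15. Alternatives are listed in the closing section.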

Additional observations from a re-analysis of the deposited data

Results flagged for a closer look

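For 3 genes the genotype effects on the log2(TPM + 1) scale were flagged, because of an interaction test past the threshold or opposite directions in the fractions. For *Sh2d2a* and *Mmrn2* the non-EC values were near the floor of this scale. The *Chd4-ECko* effect on *Sh2d2a* was higher in LSECs than in non-EC cells by 1.40 on the log2 scale (SE 0.19, adjusted p by limma = 8.88e-04). All 3 *Chd4-ECko* LSEC libraries were above all 3 controls. *Sh2d2a* passed the filter on low values through this group. It was at 0.0280 to 0.252 TPM in the 12 non-EC libraries, so the value mainly repeats the LSEC difference of 1.48. The *Brg1-ECko* effect on *Mmrn2* differed by -1.18 (SE 0.21, adjusted p by limma = 0.00920), with all 3 *Brg1-ECko* LSEC libraries below all controls. *Mmrn2* was at 0 to 0.209 TPM in the 12 non-EC libraries, so this too mainly repeats the LSEC difference, which was -1.09. Its value was -0.67 (adjusted p by limma = 0.339) with the endothelial markers as a covariate and -1.62 (adjusted p = 0.0878) with a pseudocount of 0.1. Without LSEC *Brg1-ECko* replicate 1 it was -1.08 (adjusted p by limma = 0.0222). For *Vegfc*, all 3 *Brg1-ECko* libraries were below the controls in LSECs and above them in non-EC cells. The groups did not overlap for 14.6% of all genes tested in LSECs and 39.9% in non-EC cells. The interaction test of *Vegfc* gave -0.97 (SE 0.31, adjusted p by limma = 0.116), which was past no threshold, and -0.87 without LSEC *Brg1-ECko* replicate 1. With the endothelial covariate it gave -0.29 (adjusted p by limma = 0.729). The *Brg1-ECko* effects were then 0.066 in LSECs and 0.39 in non-EC cells, no longer opposite in direction.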

How the results depend on the processing

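Results were recomputed with a pseudocount of 0.1, no filter on low values, a minimum mean of 5 TPM, quantile normalization, TPM without mitochondrial genes, no trend, a replicate block, no fold change threshold, the compared groups alone, the endothelial marker mean as a covariate, and without each library. The 9 members called between fractions were 8 at a mean of at least 5 TPM, where *Angpt2* was below the filter. The *Angpt1* value ran from -0.18 to 0.39 without single libraries, at -0.012 without LSEC control replicate 1. With the endothelial covariate, *Brg1-ECko* LSECs had 0.066 for *Vegfc*, 0.029 for *Kdr* and 0.0065 for *Flt1*, and the interaction of *Tie1* was 0.30. In *Chd4-ECko* non-EC cells 1 member, *Angpt1*, was called with quantile normalization (adjusted p by limma = 0.0462) or the covariate (0.0469), and 0 to 1 without single libraries. In the *Brg1-ECko* interaction 1 member was called with quantile normalization (*Vegfc*, -1.05), and 0 to 1 without single libraries (*Kdr* without LSEC *Brg1-ECko* replicate 3). The members called were 0 under every alternative run in the other 8 genotype comparisons. In the calls of other genes, *Mmrn2* in *Brg1-ECko* LSECs kept its call in 6 of 16 alternatives, *Vegfa* in *Brg1/Chd4-ECdko* LSECs its side of the threshold in 7 of 16, and *Sh2d2a* in *Chd4-ECko* LSECs in 15 of 15. Without mitochondrial genes the first was at adjusted p by limma = 0.0508 and the second at 0.0783. Other pathway genes called between fractions were 19 at a mean of at least 5 TPM. With the replicate block 9 members were called between fractions and 0 in each genotype comparison, so it changed no member's call. Within a fraction the libraries share only a number (13 of 18 pairs over 0.1 in LSECs, 9 of 18 in non-EC cells), and there the block moved the genes called over the genome from 14 to 23 in *Brg1/Chd4-ECdko* non-EC cells and from 2 to 5 in *Brg1-ECko* LSECs. What low TPM in non-EC cells limit cannot be given, since depth is unknown. The causes of these shifts were not tested.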
